A study of Drosophila melanogaster with 3 samples.

Results

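The vacuolar proton pump, or V-ATPase, genes were examined for binding of the ecdysone receptor EcR in whole Drosophila melanogaster pupae. All 33 protein-coding genes whose symbol starts with Vha were taken, of 13945 protein-coding genes annotated on the chromosomes that carried peaks. The rule used symbols alone and no measured value, although it was set with earlier results of these data known. The accessory subunit gene earlier called VhaM8.9 now has the symbol ATP6AP2, so it is not a member.

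The data came from chromatin immunoprecipitation followed by sequencing with an anti-GFP antibody. There was 1 group, EcR-GFP pupae aged 24 hours, males and females together, from a single transgenic line that stably expresses EcR with GFP at its C-terminus, in 3 biological replicates. Whole animals were used, so the tissue in which a site was bound cannot be told. No untagged line, other stage or hormone treatment was used here, and neither RNA nor chromatin accessibility was measured, so a peak is not shown to change a gene's expression. Peaks are given by their summits in dm6. The pooled list of all replicates and each replicate list held 30000 peaks, and the optimal list, thresholded on reproducibility between replicates, held the 9095 strongest peaks of the pooled list. Rank is by the signal value that the authors deposited with each peak, 1 being the strongest in its list. Read depth is unknown.

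The V-ATPase uses ATP to pump protons into lysosomes, endosomes and secretory vesicles and, in insect epithelia such as the Malpighian tubule, across the apical membrane. Its V1 sector hydrolyses ATP in the cytosol through subunits A to H, and its V0 sector carries protons through the membrane through subunits a, c, c'', d and e. Several subunits have more than 1 gene in the fly. One gene per subunit, here called principal, supplies the widely expressed enzyme, and other paralogues are mostly limited in expression, for example to testis, gut or neurons. EcR is the nuclear receptor for the moulting hormone ecdysone. With 14 principal genes and 19 alternative paralogues, the members allow the first kind to be set beside the second. Tissue breadth is background knowledge and was not measured in these data.

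The stretches below show the DNA under the strongest optimal summit of the 4 members with an optimal peak that could be shown, read along the strand of the gene from the release 6 genome sequence of RefSeq, the same build as dm6. They are cut to at most 50 bp on each side of the summit and exclude untranslated exons. The Vha100-2 stretch is intronic (chr3R:18394986-18395086, minus strand), as is that of Vha26 (chr3R:5592240-5592340, plus strand). The Vha13 stretch (chr3R:19644210-19644287, minus strand) is the coding part of the window and begins with the start codon. The Vha14-2 stretch (chr3R:6120805-6120905, plus strand) lies upstream of the gene.
Vha100-2: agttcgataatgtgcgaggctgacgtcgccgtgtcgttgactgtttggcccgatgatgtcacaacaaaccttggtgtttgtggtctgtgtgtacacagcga
Vha13: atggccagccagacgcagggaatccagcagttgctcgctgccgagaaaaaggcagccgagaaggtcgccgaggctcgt
Vha26: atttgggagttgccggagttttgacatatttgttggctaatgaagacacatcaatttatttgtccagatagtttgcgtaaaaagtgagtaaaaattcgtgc
Vha14-2: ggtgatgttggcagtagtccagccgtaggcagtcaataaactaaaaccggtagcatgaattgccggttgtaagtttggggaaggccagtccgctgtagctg
None of these stretches held any of the 8 short motifs listed further on. Their GC contents over the full 101 bp were 51.5% at Vha100-2, 55.4% at Vha13, 35.6% at Vha26 and 51.5% at Vha14-2, beside a median of 47.5% over all optimal summits.

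Few pump genes had strong EcR-GFP binding at a start. An optimal summit lay within 500 bp of an annotated start in 3 of 33 Vha genes (9.09%), against 19.3% of all protein-coding genes. The 3 were Vha100-2, which encodes the membrane subunit a, Vha13, which encodes the stalk subunit G, and Vha16-1, which encodes the proton-carrying ring subunit c. All belong to the principal genes, so the count was 3 of 14 principal genes (21.4%) and 0 of 19 alternative paralogues. The principal share was close to that of all genes. No test was made of these shares, because genes are not replicates and the members are few. The sets were also chosen with earlier results of these data known.

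The counts were nearly the same in each replicate. Among the 9095 strongest peaks of replicates 1, 2 and 3, a summit lay at a start of 4, 3 and 3 principal genes (23.8% ± 4.12 of 14, SD, n = 3) and of 0, 0 and 0 alternative paralogues. Over all members that is 10.1% ± 1.75 (SD, n = 3). All protein-coding genes had 19.0%, 19.5% and 18.3% in the same lists. The additional gene in replicate 1 was VhaSFD, the regulatory subunit H. The replicates measured the same genes again, so the SD describes how repeatable the counts were and does not test a difference between gene sets.

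**Figure D1:**
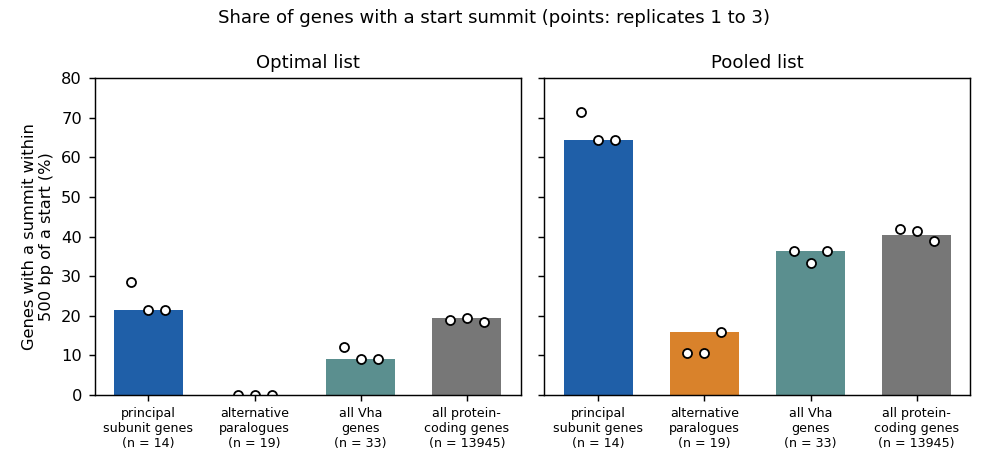
Percent of genes with a summit within 500 bp of a start, for the optimal list (left) and the pooled list (right). Bars give the combined lists and points the lists of replicates 1 to 3, cut to the 9095 strongest peaks on the left and whole on the right. Alternative paralogues are at 0 on the left in every list, and principal genes reach 64.3% in the pooled list against 40.4% of all protein-coding genes.

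With weaker peaks included, most principal genes had a summit at a start and most alternative paralogues still did not. In the pooled list 9 of 14 principal genes (64.3%) and 3 of 19 alternative paralogues (15.8%) had a start summit, 12 of 33 in all (36.4%), against 40.4% of all protein-coding genes. In the whole lists of replicates 1, 2 and 3 the principal count was 10, 9 and 9 genes and the alternative count 2, 2 and 3. Any annotated start counted, and the 14 principal genes had 23 starts against 22 in the 19 alternative paralogues. The median was 1 start per gene in both kinds, and the part of start number in these counts was not tested. The strongest start summits of the 12 genes ranked between 1851 and 27700 of 30000, with a median of 14078.5. The median over the 5639 protein-coding genes with a pooled start summit was 9581.

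Widening the view to the gene body plus 2 kb upstream added 2 genes and brought in the strongest summits of Vha100-2 and Vha16-1. An optimal summit lay in this region in 5 of 33 Vha genes (15.2%), against 30.7% of all protein-coding genes, namely in 4 of 14 principal genes and 1 of 19 alternative paralogues. The additional members were Vha26, which encodes the stalk subunit E, and Vha14-2, a paralogue for subunit F. In the replicates' strongest peaks the count was 6, 5 and 5 genes. A pooled summit lay in the region of 14 members (42.4%), against 50.4% of all genes, with 10 of 14 principal genes and 4 of 19 alternative paralogues. Gene length moves with the kind of gene. The median body was 2907 bp in principal genes and 1371 bp in alternative paralogues, beside 2166 bp in all protein-coding genes, and the part of length in these counts was not tested.

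The 5 bound regions held 11 optimal summits, 5 in Vha100-2, 3 in Vha16-1 and 1 each in Vha13, Vha26 and Vha14-2. Of these, 9 lay in introns, 1 in a coding exon and 1 upstream. A replicate summit within 100 bp was present in all 3 whole replicate lists for 9 of the 11, and in 2 lists for the others. Among the replicates' 9095 strongest peaks, 7 of the 11 were matched in all 3. The same shares over all optimal summits were 91.1% and 66.2%. Of the 11 summits, 6 also lay in the region of a neighbouring protein-coding gene. The share over all optimal summits is not given for this overlap or for the places above.

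Vha100-2 (FBgn0028670, 3R 18390323–18399169, minus strand) carried the strongest binding of any member. Its highest summit was intronic, at 3R 18395036, 1892 bp downstream of the nearer of its 2 starts, with a signal of 1442 and rank 1296. It ranked 1170, 1567 and 1342 in replicates 1, 2 and 3, so the position was about equally high in each. The 2 next summits, at ranks 1851 and 4194, shared 1 wide peak (3R 18396790–18397832) and lay 240 bp and 444 bp upstream of the inner start. This stretch is an intron of the longer transcript and also the start of Vti1b, a vesicle fusion gene on the opposite strand. The summits were nearer to the Vti1b start, at 173 bp and 377 bp, so they cannot be given to either gene alone. The highest summit, at rank 1296, also falls in the region of Vti1b, as does a weaker one at rank 8432. The nearest start to both of those was one of Vha100-2.

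Those summits upstream of the inner start recurred. The stronger ranked 2628, 1604 and 1778 in replicates 1, 2 and 3, and the weaker 7658, 5170 and 4294. Another start summit of Vha100-2, 364 bp downstream of the outer start, was weak (signal 383, rank 8432). It had no summit within 100 bp in replicate 1, and ranked 7365 in replicate 2 and 9883 in replicate 3. A further summit, in the pooled list alone at rank 10224, lay 129 bp downstream of the outer start. That one ranked 6394, 14112 and 13343 in replicates 1, 2 and 3, so every replicate had a summit near the outer start. The weakest optimal summit of Vha100-2, at rank 8984, lay 3230 bp downstream of the inner start. It ranked 22038 in replicate 1, far below its ranks of 8199 and 7710 in replicates 2 and 3. Vha100-4, a paralogue for subunit a that lies next to Vha100-2 on the same strand, held 0 pooled summits in its own region.

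Vha13 (FBgn0283536, 3R 19643018–19644386, minus strand) had a single summit. It lay in the first coding exon, 126 bp from its only start, in a narrow peak at 3R 19644039–19644434 with a signal of 814 and rank 3153. It ranked 2824, 2637 and 4717 in replicates 1, 2 and 3, among the stronger peaks of each list. No other protein-coding start lay within 500 bp, although the summit also falls in the upstream regions of Nup58, a nuclear pore gene, and subdued, a chloride channel gene.

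Vha16-1 (FBgn0262736, 2R 6625242–6633090, minus strand) had its main binding inside the gene. The strongest summit was intronic at 2R 6628488, 3896 bp from the nearest start, with a signal of 1217 and rank 1696. It ranked 1439, 1482 and 2267 in replicates 1, 2 and 3. A second summit in the same peak, at 2R 6628691, was weak at rank 8971. The start summit of Vha16-1 was 247 bp upstream of its inner start, at rank 6571, and ranked 4532, 8580 and 8103 in the replicates. None of the 3 lay in the region of another protein-coding gene. With 9 pooled summits Vha16-1 held more than any other member, ahead of Vha100-2 with 7.

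Vha26 and Vha14-2 were bound outside the 500 bp window. The Vha26 summit (3R 5592290, signal 481, rank 6422) lay in an intron 527 bp from the start, just outside the limit, whereas the farthest summit inside it was that of Vha100-2 at 444 bp. It ranked 6949 and 5303 in replicates 2 and 3 and had no summit within 100 bp in replicate 1, whose strongest summit in the gene ranked 8987. It also falls in the upstream region of noi, a splicing factor gene. The Vha14-2 summit (3R 6120855, signal 581, rank 5018) lay 1737 bp upstream of the gene and ranked 5293, 6541 and 4833. No protein-coding or noncoding start was nearer to it than that of Vha14-2. It was the single optimal summit in the region of any alternative paralogue.

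**Figure D2:**
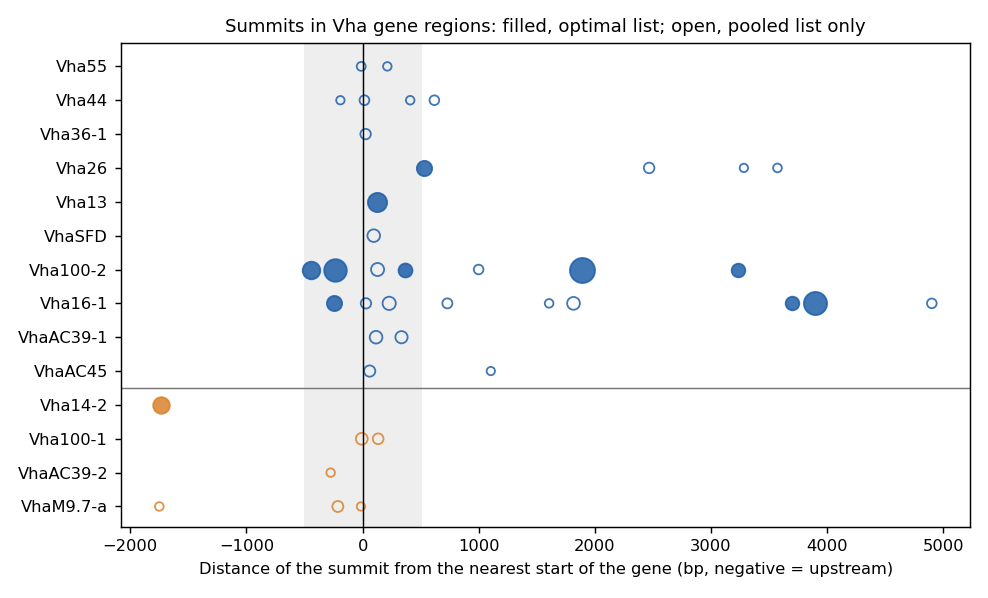
Distance of each summit from the nearest start of its gene, in bp, for the 14 Vha genes with a pooled summit, principal genes in blue above alternative paralogues in orange. Filled points are the 11 optimal summits, open points are in the pooled list alone, point area grows with signal and the grey band marks 500 bp on each side. The highest summits of Vha100-2 and Vha16-1 lie well inside the genes, while most other principal genes have weak summits close to the start.

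Weaker summits sat at the starts of 6 further principal genes, within 100 bp of the start in 5 of them. The strongest were at VhaAC39-1, which encodes subunit d that joins V0 to the central stalk, with ranks 11153 and 12189 at 116 bp and 335 bp, and at VhaSFD, with rank 11235 at 96 bp. The VhaAC39-1 start ranked 9957, 11118 and 11294 in replicates 1, 2 and 3. The VhaSFD start ranked 8037, 15223 and 11937, so only replicate 1 put it among its 9095 strongest. Every replicate thus had a summit at both starts, although the VhaAC39-1 summit at rank 11153 had none within 100 bp in replicate 2.

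The other principal genes with weak summits had a neighbouring protein-coding start within 500 bp of the summit. VhaAC45, an accessory subunit, had rank 14988 beside Gnptab. Vha36-1, subunit D of the rotor, had rank 17800 beside CG8187. Vha44, subunit C that bridges V1 and V0, had rank 20642 beside Hmgs, an enzyme of the mevalonate pathway. Vha55, the nucleotide-binding subunit B, was the weakest at rank 25288, beside the sorting nexin gene Snx3. The strongest start summit of Vha55 ranked 16084, 13692 and 17888 in replicates 1, 2 and 3, higher in each than in the pooled list. The summit at rank 25288 had no match within 100 bp in replicate 3. There the rank of 17888 belonged to another start summit, 213 bp from the start in a coding exon, at pooled rank 27682.

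Only 4 alternative paralogues had any pooled summit in their region. Vha100-1, the neuronal paralogue of subunit a, had its strongest at rank 13169, 7 bp from a start and beside the start of dgt6. VhaM9.7-a had rank 15889 at 213 bp, nearer to the start of CG11586. The only start summit of VhaAC39-2 ranked 27700 and was matched in replicate 3 alone, at rank 28893. Vha14-2 had the upstream peak given above and nothing at its start.

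**Figure D3:**
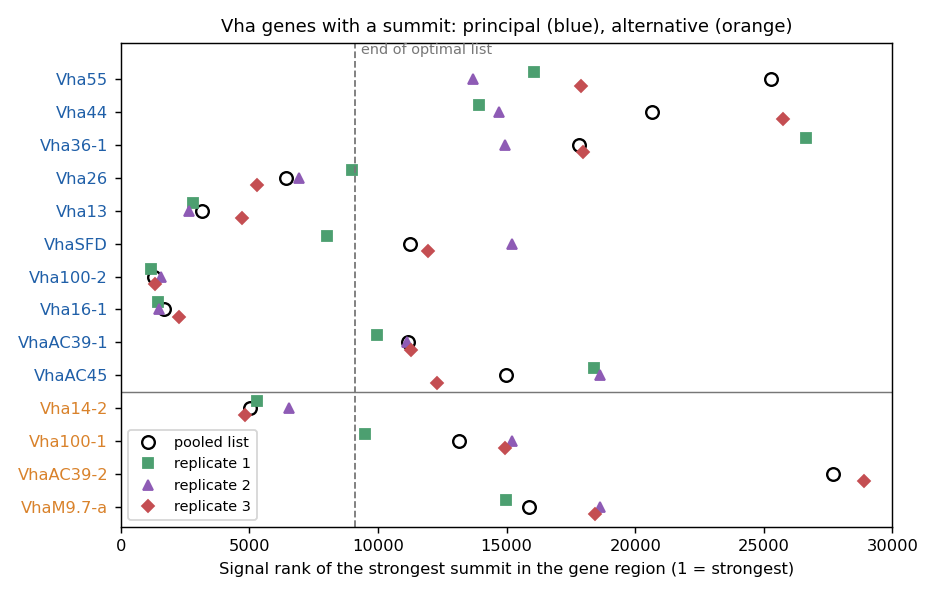
Signal rank of the strongest summit in the region of each of the 14 Vha genes with a pooled summit, principal genes (blue) above alternative paralogues (orange). Open circles are the pooled list and filled marks replicates 1 to 3, each of 30000 peaks, and the dashed line is the end of the optimal list at 9095. Vha100-2 and Vha16-1 lie at ranks of 1170 to 2267 in every list, whereas VhaSFD crosses the line in replicate 1 alone.

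The remaining 19 members had no pooled summit in the gene body or 2 kb upstream. The 4 principal genes among them were Vha68-2, the catalytic subunit A, Vha14-1, subunit F, VhaPPA1-1, subunit c'', and VhaM9.7-b, subunit e. The nearest pooled summit was 38809 bp from a start of Vha68-2, 3410 bp from Vha14-1, 50157 bp from VhaPPA1-1 and 2853 bp from VhaM9.7-b. The 15 alternative paralogues were Vha68-1, Vha68-3, Vha36-2, Vha36-3, Vha100-3, Vha100-4, Vha100-5, Vha16-2, Vha16-3, Vha16-4, Vha16-5, VhaPPA1-2, VhaM9.7-c, VhaM9.7-d and VhaAC45RP. No replicate list held a summit in the region of any of the 19 either.

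Some neighbouring paralogues both lacked summits, whereas Vha100-2 had 7 pooled summits and Vha100-4 beside it had 0. The 3 subunit A genes lie close to each other on 2L, and their starts were 38809 bp, 35425 bp and 10104 bp from a pooled summit (Vha68-2, Vha68-3 and Vha68-1). VhaPPA1-1 and VhaPPA1-2 lie close together on 3R, as do Vha16-3 and Vha16-2 on 3L, and none of the 4 had a summit. Over all members the median distance from a start to the nearest pooled summit was 121 bp in principal genes and 8231 bp in alternative paralogues. The ranges overlapped, from 12 bp to 50157 bp and from 7 bp to 65869 bp.

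**Figure D4:**
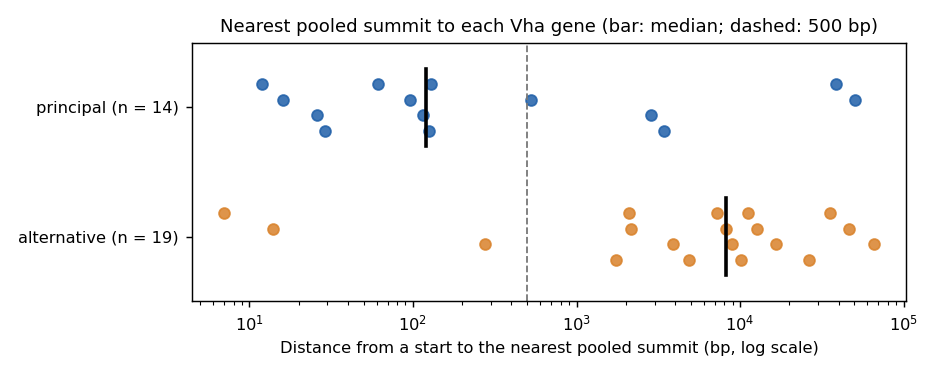
Distance from a start to the nearest pooled summit for each of the 33 Vha genes, on a log scale, principal genes above alternative paralogues. Black bars are medians (121 bp and 8231 bp) and the dashed line marks 500 bp. Principal genes fall into 9 within the line and 5 beyond it, and 3 of 19 alternative paralogues lie within it.

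Both sectors of the enzyme included bound genes. An optimal summit lay in the region of 3 of 13 V1 genes (Vha13, Vha26 and Vha14-2) and of 2 of 18 V0 genes (Vha100-2 and Vha16-1), and a pooled summit in 7 V1 (53.8%) and 6 V0 genes (33.3%). These optimal shares were 23.1% of V1 and 11.1% of V0 genes, beside 30.7% of all protein-coding genes, and the pooled share of all genes was 50.4%. Principal genes make up a larger part of V1 than of V0. The pooled region shares were 71.4% of principal genes and 21.1% of alternative paralogues. The part of this mix in the sector shares was not tested. The 2 accessory genes had 0 optimal summits. The regions of both catalytic-head subunits with a principal gene, A and B, held no optimal summit.

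The ecdysone response element is an inverted repeat of receptor half-sites. Allowing 1 mismatch, it was found within 100 bp of 0 of the 11 Vha summits, beside 4.84% of all 9095 optimal summits. With at most 2 mismatches it was again at 0 of 11, beside 18.6%. With so few summits these counts were not tested. The best match at a Vha summit had 3 mismatches. The single receptor half-site AGGTCA was within 100 bp of 2 of the 11 summits (Vha14-2 and the Vha16-1 start), beside 7.77% of all optimal summits, and AGTTCA was at 1, beside 16.8%. All motifs were searched on both strands.

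E-box variants known as M-boxes were more frequent in the promoters of pump genes. In flies the factor Mitf, the relative of mammalian MITF and TFEB, is known to activate V-ATPase genes through such sites. In windows from 250 bp before to 50 bp after the outermost start, the M-box TCATGTGA was present in 4 of 33 Vha promoters (12.1%), beside 0.523% of all 13945 protein-coding promoters. No test was made of this difference, which rests on few genes. The 4 genes were Vha14-1, VhaPPA1-1, VhaM9.7-b and VhaAC45, all principal. The related TCACGTGA, which contains the plain E-box CACGTG, was in 1, that of Vha44, beside 0.172%. The plain E-box was in 3 (Vha44, VhaM9.7-d and VhaAC45RP), beside 4.20%.

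The few Vha genes with a flanked promoter site had no optimal EcR-GFP summit in their regions. None of the 5 genes with either flanked site held one, and 30.7% of all protein-coding genes did. Of the 5, 3 (Vha14-1, VhaPPA1-1 and VhaM9.7-b) had no pooled summit in the region, where 50.4% of all protein-coding genes had one. With so few genes these counts were not tested. Among all 73 protein-coding genes with an M-box in the window, 11 (15.1%) had an optimal start summit, against 19.3% of all protein-coding genes, and 28 (38.4%) had a pooled one, against 40.4%. Both shares were near those of all genes. The M-box did occur near 2 of the 11 Vha summits, beside 0.407% of all optimal summits. In Vha26 it lay 57 bp from the summit, and in Vha16-1 there were 2 copies within 100 bp of the weak intronic summit at rank 8971. A match of letters is not evidence that Mitf binds there.

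The M-box sites that could be shown are given with 10 bases on each side, along the strand of the gene, with the motif in capitals. That of Vha26 is in its bound intron (chr3R:5592334-5592361, plus strand). Those of VhaPPA1-1 (chr3R:14904010-14904037, minus strand) and VhaM9.7-b (chr3L:21539874-21539901, plus strand) lie 38 bp and 25 bp downstream of the start, in a 5′ UTR exon.
Vha26: ttcgtgctggTCATGTGAcacggccccc
VhaPPA1-1: aaaatgtacgTCATGTGAttgtggattc
VhaM9.7-b: gacatgtccgTCATGTGAtattcgttgc
The 8 bases are the same in all of them, as the search required, and the flanks differ.

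Other motifs were in few Vha promoters, and no test was made of their shares. The half-sites AGGTCA and AGTTCA were in 2 (6.06%) and 4 (12.1%), beside 5.88% and 17.8% of all promoters. The ecdysone repeat with at most 2 mismatches was in 3 (9.09%), beside 6.69%. The DNA replication element TATCGATA was in 2 (6.06%), those of Vha55 and VhaSFD, beside 9.36%. The core promoter motif GGTCACACT was in 3 (9.09%), those of Vha68-2, Vha26 and Vha100-1, beside 6.05%. GAGAGAG was in 2 (6.06%), those of Vha100-2 and Vha100-5, beside 5.87%. The GAGA motif was also within 100 bp of 2 Vha summits, at Vha100-2 rank 4194 and Vha16-1 rank 1696, beside 10.6% of all optimal summits.

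Genes that work with the pump had optimal summits about as often as other genes, and pooled summits more often. Of 24 companion genes, 5 (20.8%) had an optimal summit within 500 bp of a start and 9 (37.5%) in the region, against 19.3% and 30.7% of all genes. In the pooled list 16 of 24 (66.7%) had a start summit, against 40.4% of all genes, and 16 (66.7%) had one in the region, against 50.4%. The whole lists of replicates 1, 2 and 3 had a start summit in 16, 16 and 14 companion genes. These shares were not tested. The sphingolipid transporter gene spin of the late endosome and lysosome was the most heavily bound, with 9 optimal summits, the strongest in an intron at rank 682. Of the lysosomal proteases, CtsL1 had 5 summits, led by an intronic one at rank 2679, cathD had 1 in a 3′ UTR exon at rank 2626, and CtsB had 1 at its start at rank 7800 that was matched in only 1 whole replicate list. Npc2a, a sterol carrier gene, had an upstream summit 705 bp away at rank 1297, and the carbonic anhydrase gene CAH1 an intronic one at rank 877. The cathD summit lay 8127 bp from the nearest start of cathD. Whether the summits of companion genes also lay in the region of a neighbouring gene was not examined.

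The companions for regulation, assembly and nutrient sensing included genes with and without optimal summits. Over all protein-coding genes, 19.3% had an optimal summit at a start and 30.7% had one in the region. The assembly factor gene Rbcn-3B had a start summit at rank 9027 and a stronger one upstream at rank 6856, its partner Rbcn-3A had only pooled summits, and rogdi had 1 in a coding exon at rank 5793. Mitf and ATP6AP2 had 0 pooled summits in their regions. Of the 7 nutrient-sensing genes of the lysosomal surface, Lamtor3 alone had an optimal summit, 73 bp from its start at rank 5382. The median rank over all protein-coding genes with an optimal start summit was 4605. RagC-D, Lamtor4 and Lamtor5 had start summits in the pooled list alone, at ranks 12703, 12415 and 10834. RagA-B, Lamtor1 and Lamtor2 had no pooled summit. A pooled start summit was present in 40.4% of all protein-coding genes. Start counts of the companions varied between replicates, with 3, 7 and 6 genes in the strongest peaks of replicates 1, 2 and 3 (5.33 ± 2.08, SD, n = 3), more than those of the pump genes did.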

How the data were processed

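Peak lists deposited by the authors for 3 EcR-GFP replicates, the pooled replicates and an optimal set were used. Per the deposited notes, a replicate's peaks derive from its own alignment and 1 further file, which also entered the control-normalized signal, and all are in dm6. Neither aligner nor peak caller was named, and how reads mapping to several copies were treated is not stated. The deposited signal value of each peak served for ranking inside its own list. The summit offset deposited with each peak gave its position. Genes and starts came from Ensembl release 115 and sequence from RefSeq's release 6 assembly, the same build. A gene was counted when a summit lay within 500 bp of any start of its transcripts, or in its body plus 2 kb upstream. Replicate summits within 100 bp were called matches. Replicate lists were cut to 9095 peaks where compared with the optimal list. Results are counts and shares with the SD over 3 replicates. No significance test was made. Every Vha gene was named, and those with an optimal summit were given in full. Assignment was tested on planted summits. Python 3.11.15 was used. Members, gene sets and motifs were chosen with earlier results of these data known. 1 companion gene was matched by an older symbol. Sequences on some chromosome arms are not printed here.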

Additional observations from a re-analysis of the deposited data

How the results depend on the processing

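The counts of Vha genes with an optimal or pooled start summit kept within 1.5 times of the reported values under every alternative run. The optimal count ranged from 2 to 4, the pooled count from 9 to 13, and the count of alternative paralogues with an optimal start summit was 0 throughout. Leaving out a replicate kept the optimal peaks that were among the strongest of both other replicates, and start counts were then 3 without replicate 1, 2 or 3. The region count of 5 was 9 with 5 kb upstream, which added Vha100-4, VhaM9.7-a, VhaM9.7-b and VhaAC45RP. The summit added for Vha100-4, at rank 8984, was the intronic summit already counted in Vha100-2. The region count was 3 in the 4547 strongest optimal peaks. It was 4 to 5 when 1 replicate was left out. The median signal percentile of the strongest start summit in the optimal list, over 3 genes, was 65.3. It was 47.4 with 1000 bp, where Vha26 entered, and 48.1 in replicate 3 alone. The companion count of 5 depended most on the peaks used: it was 1 in the 4547 strongest optimal peaks, 3 in replicate 1 alone, and 1 to 2 when 1 replicate was left out, lowest without replicate 2. The causes were not tested. The ecdysone repeat was at 0 start summits in all alternatives, which says little with at most 5 such summits. No paired analysis was possible because there is 1 group. The unknown read depth sets no limit that can be stated, so a gene without a peak is one without a called peak.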
